A study of Homo sapiens with 20 samples.

Results

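The oligoadenylate synthetases and the other dsRNA-responsive effectors were followed in Mock- and DAC-treated human lung cancer cell lines. The 7 genes, OAS1, OAS2, OAS3, OASL, EIF2AK2, ADAR and MX2, were taken by their symbols from the 36076 genes of the expression table, and all 7 reached the limit for testing, a mean FPKM (fragments scaled to gene length and library size) of 0.1. H1792, H1299, PC9, A549, CL1-0 and CL1-5 cells were profiled by mRNA-seq with 1 library per line and treatment, and all of them other than H1792 and CL1-0 by Omni-ATAC-seq, in which a transposase marks accessible DNA. Mock cells were PBS-treated, and DAC cells were given 100 nM decitabine, a cytosine analog that depletes DNA methyltransferases, for 72 hours and were then grown for 3 days without the drug. Both arms of a line share its culture medium, genotype and origin, and no allele or transgene was added to any line. CL1-5 was derived from CL1-0 by selection for invasiveness, so these lines are related. The replicates are cell lines, and all p-values refer to the spread between lines.

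Oligoadenylate synthetases bind double-stranded RNA and make short 2′-5′-linked oligoadenylates, second messengers that lead to the decay of viral and cellular RNA. PKR, the product of EIF2AK2, is a kinase that binds the same kind of RNA and stops translation by phosphorylating the initiation factor eIF2α, while ADAR edits adenosine to inosine in it and so keeps the cell's own RNA from setting off these sensors. All of them are interferon-stimulated genes, which the factor ISGF3 switches on at a short promoter motif, the interferon-stimulated response element (ISRE).

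Between 22234485 and 25303899 reads per library were recovered from the table in 10 libraries, and 52634234 and 59735913 in those of H1299, where 81.9% to 85.5% of low read numbers were even against 39.2% to 41.5% elsewhere, so reads of H1299 are not independent counts. As a check of the lines, the summed FPKM of 5 epithelial markers was 0.986 in CL1-0 Mock and between 111 and 3015 in the other 5 Mock libraries, and that of 4 leukocyte markers was at most 4.23 in Mock and 7.50 after DAC, nearly all of it CD14 in A549, with 0 to 18 reads of PTPRC per library and an endothelial marker at an FPKM of at most 1.2. From Mock to DAC the epithelial sum went from 111 to 669 in H1299, with KRT19 at 0.0150 and 3.92 and EPCAM at 0.0555 and 2.57, from 3015 to 1907 in A549, from 2168 to 1495 in PC9 and from 0.986 to 3.05 in CL1-0, with smaller moves in CL1-5 and H1792, and the part of these markers in the results was not tested. Because of the even read numbers of H1299, the 5-line changes of the 7 genes are also given without H1299, and those of other genes where this turns the direction or moves a value by over 1.5 times. In Omni-ATAC-seq, the lists labelled CL1-5 carry peak names of PC9 and the reverse. A promoter peak was listed in the Mock library labelled CL1-5 for 95.7%, and in that labelled PC9 for 53.6%, of 138 genes with mRNA in PC9 but not in CL1-5. For 79 genes with mRNA in CL1-5 but not in PC9 the shares were 63.3% and 88.6%. These libraries are called by their labels, and accessibility and mRNA of these 2 lines are set side by side both ways.

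The promoters come first, because the ISRE is the sequence the 7 genes are known to share. In GRCh37, OAS1 (chr12:113343661-113371024), OAS3 (chr12:113375856-113414265) and OAS2 (chr12:113416200-113449528) stand in a row on the plus strand of chromosome 12. OASL (chr12:121455566-121477049, minus strand) lies farther along the same chromosome. EIF2AK2 is at chr2:37326353-37384665 (minus strand), ADAR at chr1:154554171-154600489 (minus strand) and MX2 at chr21:42733926-42781320 (plus strand), next to its paralog MX1. The windows from 250 bases before to 50 after the reference start of each gene were searched on both strands for GAAANNGAAA and for the form with a spacer of 1 base, GAAANGAAA; the forms can overlap. The first was present in OAS2, OAS3, EIF2AK2 and ADAR and in 3.26% of 18275 protein-coding promoters. The second was present in OAS1, OAS3, ADAR and MX2 and in 2.81% of them. Either form was found in 6 of the 7 windows and in 5.72% of all, and in the OASL window these letters were not present. The palindrome TTCNNNGAA, a core of gamma-activated sites, was in the OAS1 window, from -168 to -160 bases of the start, and in 6.27% of all promoters.

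The 30-base stretches around the matches are shown 5′ to 3′ on the strand of the gene, with the matching letters in capitals. A match on the opposite strand reads as TTTC repeats.
OAS1, chr12:113344739-113344768, plus strand: tcccttctgagGAAACGAAAccaacagcag
OAS2, chr12:113416316-113416345, plus strand: tagacttcagTTTCAGTTTCctggctctgg
OAS3, chr12:113376257-113376286, plus strand: agccgggcggGAAAACGAAAccagaaatcc
OAS3, chr12:113376123-113376152, plus strand: gctagaaaGAAACGAAACTGAAAgcaggga
EIF2AK2, chr2:37384110-37384139, minus strand: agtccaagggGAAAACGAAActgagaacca
ADAR, chr1:154580658-154580687, minus strand: tttccgagGAAACGAAAGCGAAAttgaacc
MX2, chr21:42733828-42733857, plus strand: tgataactcagTTTCATTTCtgtggccaga
MX2, chr21:42733855-42733884, plus strand: agatcaagtagTTTCATTTCtctccctgtt
In OAS1, OAS3, EIF2AK2 and ADAR the match ended within 9 bases before the start or ran over it, in OAS2 it began 3 bases after the start, and in MX2 the pair of matches lay between -115 and -80. OAS3 and EIF2AK2 carry the same 10 letters at the start, and in ADAR and in the farther OAS3 stretch both forms overlap.

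The promoters differed in CpG content, the substrate of DNA methylation. The OAS1 window held 1 CpG and those of OAS2 and OASL held 4 each, against a median of 24 over all promoters. The MX2 window held 10, and OAS3, ADAR and EIF2AK2 held 20, 23 and 30. As a ratio of observed to expected CpG, OAS1 at 0.0744 was lower than all but 2.67% of promoters, and ADAR at 0.956 was higher than 79.8% of them. Methylation itself was not analysed here.

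In untreated cells the 7 genes covered a wide range of mRNA levels. ADAR had the highest FPKM of the 7 in all 12 libraries, and its Mock level lay between 24.5 in PC9 and 62.4 in CL1-5. EIF2AK2 (2.98 in H1299 to 10.7 in CL1-5) and OAS3 (1.57 in CL1-0 to 12.8 in CL1-5) were present in every line, and their Mock ranges overlapped. OASL was at 0.186 in A549 and 4.23 in CL1-5, with 0.209 to 0.711 in the other lines. OAS1, OAS2 and MX2 went from nearly absent to clearly expressed between lines. OAS1 had 3 reads in CL1-0 and 1002 in A549. OAS2 had 0 to 2 reads in A549, CL1-0, PC9 and H1299 but 907 in CL1-5 and 168 in H1792, and MX2 had at most 9 reads in A549, CL1-0, PC9 and H1299. In Mock, CL1-5 had the highest level of OAS2, OAS3, OASL, EIF2AK2 and ADAR among the 6 lines, A549 that of OAS1 and H1792 that of MX2. These are single libraries of pooled cells, in which more cells expressing a gene and more RNA per cell cannot be told apart.

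**Figure D1:**
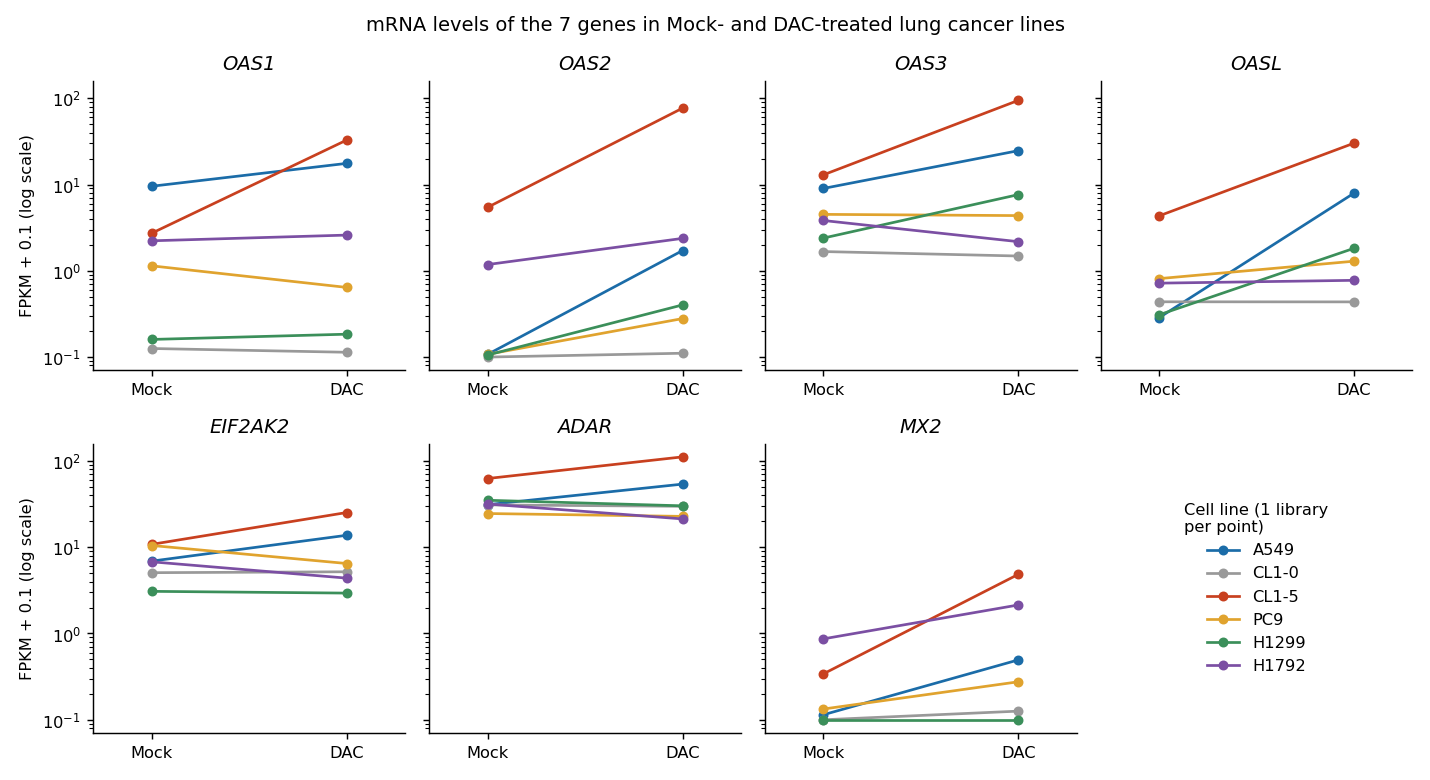
FPKM plus 0.1 (log scale) of each of the 7 genes in the Mock and the DAC library of 6 lines, with a line joining the pair of each cell line and 1 library per point. The DAC point lies above the Mock point for all 7 genes in A549 and CL1-5, while in CL1-0 the points of each gene lie close together, with OASL at 0.337 and 0.336.

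After DAC, OAS2 was the only one of the 7 with a higher value in each of the 5 lines tested together, which 6.76% of all genes had, but in CL1-0 this rested on 2 reads. Its FPKM went from 0.00745 to 1.62 in A549 (1 and 256 reads), from 5.34 to 76.6 in CL1-5 (907 and 11656 reads), from 0.00768 to 0.179 in PC9 (1 and 26 reads) and from 0.00558 to 0.302 in H1299 (2 and 100 reads). In CL1-0 it had 0 reads in Mock and 2 after DAC, both under a floor of 3 reads, so no fold is given there. In H1792 it went from 1.08 to 2.28. OAS2 was thus higher in the 5 lines where it could be measured, and after DAC its level was above 1 FPKM in A549, CL1-5 and H1792. The ratio was 14.3 in CL1-5. With a single Mock read it was 217 in A549 (95% exact counting interval 38.6 to 8599) and 23.3 in PC9 (3.84 to 957), intervals that cover counting error only.

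Over 5 lines OAS2 differed by a log2 of 2.25 (adjusted p = 0.239 from limma, standard error 0.57) on the log2(FPKM + 0.1) scale, which understates the change of low genes. An exact two-sided sign-flip permutation test over the lines gave p = 0.0625 with 5 lines, the smallest they allow, and 0.03125 over 6. Neither value is adjusted for the number of genes, and each counts CL1-0, with its 2 reads, as a line with a higher value. Without CL1-0 the change was 2.78, without H1299 2.33 and with H1792 2.05. With voom on the recovered reads OAS2 passed the threshold, at a log2 change of 4.25 and an adjusted p of 0.0103 from limma, whereas on FPKM its adjusted p did not. Voom treats reads as counts, which those of H1299 are not independently, and it was not run without H1299.

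The other synthetases split by line. OAS1, the smallest of the synthetases, went from 9.45 to 17.5 FPKM in A549 and from 2.63 to 32.7 in CL1-5, a ratio of 12.4. In PC9 it went the other way, from 1.04 to 0.541 (107 and 62 reads). It stayed under 0.1 FPKM in CL1-0 and H1299 and was at 2.13 and 2.49 in H1792. Its mean log2 change was 0.74 (adjusted p = 0.598 from limma, standard error 0.58), and it was 0.03 without CL1-5 and 0.87 without H1299. OAS3, the largest of the family, went from 8.90 to 24.6 in A549, from 12.8 to 94.3 in CL1-5 and from 2.29 to 7.53 in H1299. It moved from 1.57 to 1.38 in CL1-0, from 4.41 to 4.26 in PC9 and from 3.73 to 2.08 in H1792. OAS3 was therefore higher in 3 of 6 lines, and over the 5 lines its log2 change of 1.16 (adjusted p = 0.355 from limma, standard error 0.43) became 0.73 without CL1-5 and 1.03 without H1299. Among these 3 synthetases, which stand side by side, the genes did not move as a block: in H1299 OAS2 and OAS3 were higher by 1.93 and 1.67 on the log2 scale while OAS1 differed by 0.20, and in PC9 OAS2 was at 1.38, OAS3 at -0.05 and OAS1 at -0.83.

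OASL, a family member without synthetase activity that enhances RIG-I signalling, had its largest change in A549, from 0.186 to 7.83 FPKM, a ratio of 42.2. It went from 4.23 to 30.0 in CL1-5, from 0.209 to 1.72 in H1299 and from 0.711 to 1.19 in PC9, and it was at 0.337 and 0.336 in CL1-0 and at 0.619 and 0.675 in H1792. The DAC library was above the Mock library in all lines other than CL1-0. The log2 change over 5 lines was 2.16 (adjusted p = 0.289 from limma, standard error 0.64), with an exact two-sided sign-flip permutation p of 0.125 over 5 lines and 0.0625 over 6. It was 2.07 without H1299, 1.51 without A549 and 1.82 with H1792.

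EIF2AK2 and ADAR, the kinase and the editing enzyme, changed less. Values are per gene, so transcripts from different starts of ADAR are not told apart. EIF2AK2 went from 6.80 to 13.7 FPKM in A549 and from 10.7 to 25.2 in CL1-5, ratios of 2.01 and 2.35. It was at 4.97 and 5.09 in CL1-0 and at 2.98 and 2.84 in H1299, and it went from 10.4 to 6.37 in PC9 and from 6.67 to 4.28 in H1792. ADAR went from 31.1 to 53.8 in A549 and from 62.4 to 111 in CL1-5, ratios of 1.73 and 1.78. It was at 30.8 and 29.7 in CL1-0, at 24.5 and 22.7 in PC9, at 34.9 and 30.1 in H1299 and at 31.6 and 21.2 in H1792. So the lines again divided, with A549 and CL1-5 higher and the other 4 lines near or below their Mock level. The log2 changes over 5 lines were 0.30 (standard error 0.28, adjusted p = 0.654 from limma) for EIF2AK2 and 0.25 (standard error 0.20, adjusted p = 0.598) for ADAR, within the spread between lines. Without H1299 they were 0.39 and 0.36, with H1792 0.14 and 0.11, without CL1-5 0.07 and 0.10, and without A549 0.12 and 0.11. In FPKM after DAC, CL1-5 had more OAS2 (76.6) and OAS3 (94.3) mRNA than EIF2AK2 (25.2), whereas in its Mock library EIF2AK2 (10.7) was above OAS2 (5.34).

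MX2, a dynamin-like GTPase that blocks the nuclear entry of retroviral genomes, was low in most lines. It went from 0.240 to 4.74 FPKM in CL1-5 (85 and 1503 reads), from 0.766 to 2.04 in H1792 (248 and 639 reads), from 0.0143 to 0.394 in A549 (4 and 130 reads) and from 0.0332 to 0.176 in PC9 (9 and 53 reads). In CL1-0 it had 0 and 10 reads, at least 2.66-fold higher after DAC against the floor of 3 reads in that library, and in H1299 it had 0 reads in both libraries. MX2 was higher in 5 of 6 lines, among them PC9 and H1792, where OAS3, EIF2AK2 and ADAR were not. The ratio was 19.7 in CL1-5, 27.5 in A549 (95% exact counting interval 10.5 to 103) and 5.29 in PC9 (2.59 to 12.2). Over 5 lines the log2 change was 1.46 (adjusted p = 0.359 from limma, standard error 0.55), and 1.83 without H1299. Without CL1-5 its mean FPKM was under 0.1 and it was not fitted. The exact two-sided sign-flip permutation p was 0.125 over 5 lines and 0.0625 over 6. MX2, too, passed the threshold in the voom fit of reads (log2 change 3.69, adjusted p = 0.0244 from limma), which was not run without H1299.

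**Figure D2:**
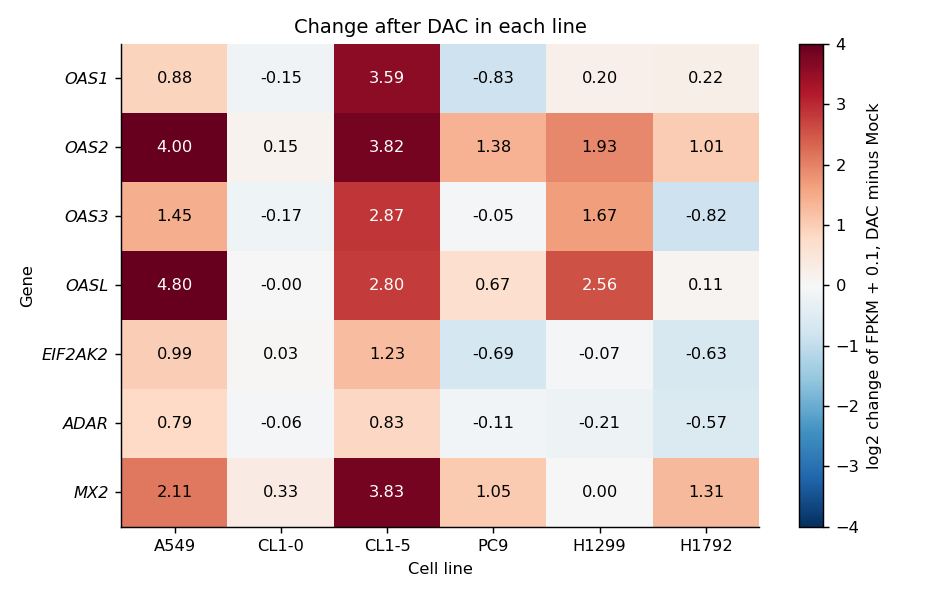
Log2 change of FPKM + 0.1, DAC minus Mock, for each gene (rows) in each line (columns), with the value printed in each cell and 1 library per treatment. The CL1-5 column lies between 0.83 and 3.83 and the A549 column between 0.79 and 4.80, and the CL1-0 column between -0.17 and 0.33.

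Across all genes the 5-line comparison called 27 of 22603 higher (0.119%) and 0 lower (0%) by limma with an adjusted p under 0.05, and 0 higher without A549 or without CL1-5. None of the 7 genes was called in either direction. At an unadjusted p under 0.05 there were 8.07% of all genes higher and 4.4% lower, and 4 of the 7, OAS2, OAS3, OASL and MX2, were higher and 0 lower. The median log2 change of the 7 was 1.16, beside 0.07 over all genes tested. That median was 1.03 without H1299 and, over the 6 genes that could be fitted, 0.41 without CL1-5.

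By line, counted at a change of at least 1 on the log2 scale and with no test, the 7 genes stood as follows. In CL1-5, 6 of 7 were higher, all but ADAR, where 7.25% of all genes were higher and 5.05% lower. In A549, 4 were higher (OAS2, OAS3, OASL and MX2) against 15.5% and 6.69% of all genes, and EIF2AK2 lay just outside the limit at 0.99. In H1299, 3 were higher (OAS2, OAS3 and OASL) against 8.18% and 3.15%. In PC9 and in H1792, OAS2 and MX2 were the 2 higher ones, against 10.2% and 3.1% of all genes in PC9 and 10.3% and 5.79% in H1792. In CL1-0, 0 of 7 were higher, against 7.6% and 2.14% of all genes, although MX2, with 0 and 10 reads there, was at least 2.66-fold higher against the floor of 3 reads and 2 of the 7 passed the limit with a pseudocount of 0.01. None of the 7 was lower by this measure in any line. The median log2 change of the 7 was 2.87 in CL1-5, 1.45 in A549, 0.20 in H1299, 0.11 in H1792, -0.00 in CL1-0 and -0.05 in PC9. In CL1-5 it exceeded the change of 98.9% of all genes, and in PC9 that of 39.2%.

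The partners of the pathway had smaller median changes than the 7 genes themselves. PDE12, which degrades oligoadenylates, was at a log2 change of 0.25 and ABCE1, a ribosome recycling factor, at 0.08, and neither passed the threshold. Of 14 kinases, factors and targets around PKR and eIF2, 0 passed the threshold and 1 was higher at an unadjusted p under 0.05, with a median of -0.17. The highest were DNAJC3, an inhibitor of PKR, at 0.32, PPP1R15B at 0.29, the kinase EIF2AK3 at 0.28 and EIF2S1, which encodes eIF2α, at 0.03. PRKRA, a protein activator of PKR, was at -0.08. The lowest were the stress-response genes DDIT3 at -0.58 and TRIB3 at -0.77, which were at -0.29 and -0.20 without H1299. TRIB3 went from 123 to 14.5 FPKM in H1299 and from 66.8 to 21.5 in A549, but from 19.3 to 35.9 in PC9. Of 10 other genes that edit, cut or bind double-stranded RNA, 9 were tested and 0 passed, with a median of -0.06. ADARB1, a second editing enzyme, was at 0.38, DICER1 at 0.23, STAU1 at 0.08 and DHX9 at 0.04, and the lowest were STAU2 at -0.10 and DGCR8 at -0.15. Without H1299 the direction turned for EIF2S1 (-0.17), ABCE1 (-0.05), DHX9 (-0.03) and DGCR8 (0.02), and PDE12 was at 0.12, STAU1 at 0.05 and STAU2 at -0.04.

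The median changes of the sensors upstream and of other interferon-stimulated genes lay nearer to that of the 7 genes. Of 7 dsRNA sensors and adaptors, 0 passed the adjusted threshold and 4 were higher at an unadjusted p under 0.05, with a median log2 change of 1.11. These were DHX58 at 1.78, DDX58, which encodes RIG-I, at 1.49, IFIH1, which encodes MDA5, at 1.46, and ZBP1 at 1.11, while TRIM25 was at 0.04 and the adaptor MAVS at 0.01. Of 14 genes of interferons and their signalling, 13 were tested, 0 passed and 3 were higher at an unadjusted p under 0.05, with a median of 0.52. IFNL1 was at 1.72, IRF7 at 1.42, IRF1 at 1.05 and IFNL2 at 1.00, the ISGF3 subunits STAT2 and IRF9 were at 0.52 and 0.50, and the lowest were IRF3 at 0.05 and the receptor gene IFNAR2 at -0.13. IFNL1, a type III interferon, had 3 reads in Mock and 44 after DAC in CL1-5, and it had 0 and 6 reads in A549, 0 and 28 in H1299, 17 and 33 in CL1-0 and 0 in PC9 and H1792 under both treatments. IFNB1 had at most 2 reads in any library. Without H1299, TRIM25 was at 0.41, MAVS at 0.19, IRF3 at 0.01 and IFNAR2 at -0.22, and ZBP1 was under the limit for testing.

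Of 26 other interferon-stimulated genes, 1 passed, BST2, the surface protein that tethers virus particles, at 4.57 (standard error 0.44, adjusted p = 0.0255 from limma), and 18 were higher at an unadjusted p under 0.05. The adjusted p of BST2 from limma ranged from 0.00488 to 0.248 over the alternatives, and it was 0.156 without A549, 0.110 without CL1-5, 0.0881 without CL1-0, 0.0868 without PC9 and 0.00769 without H1299. The median of the 26 was 1.28, close to the 1.16 of the 7 genes. After BST2 the highest were IFI27 at 3.51, IFITM1 at 2.2 and UBA7 at 1.95, and the lowest were HERC6 at 0.55 and IFI35 at 0.54. MX1 was at 1.92. By line, 25 of the 26 were at least 2-fold higher in CL1-5, 22 in A549, 11 in H1299, 7 in H1792, 6 in PC9 and 3 in CL1-0, which is the order of the lines for the 7 genes as well, apart from PC9 and H1792, which tie there. BST2 was higher in all 6 lines, also in CL1-0 (7 and 230 reads), where MX2 had 0 and 10 reads and OAS2 0 and 2.

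**Figure D3:**
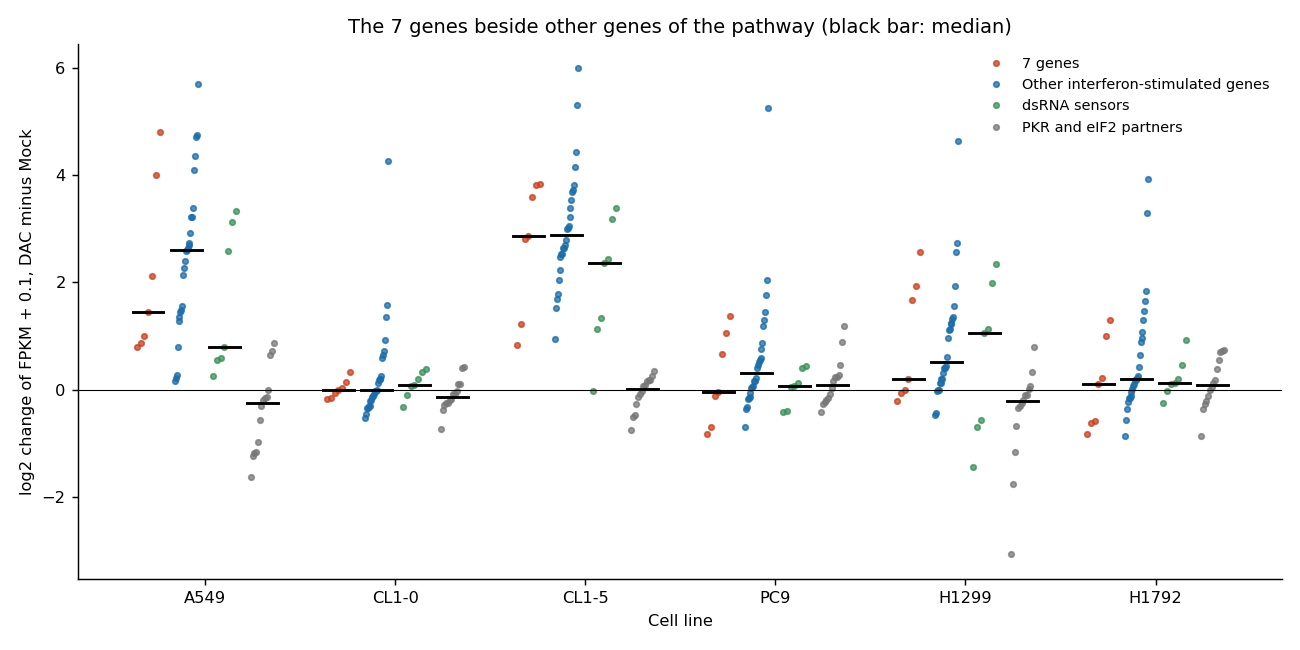
Log2 change of FPKM + 0.1, DAC minus Mock, in each line for the 7 genes, 26 other interferon-stimulated genes, 7 dsRNA sensors and 14 partners of PKR and eIF2, with 1 point per gene and black bars for medians. In CL1-5 the medians of the 7 genes (2.87) and the interferon-stimulated genes (2.89) lie together, and in A549 the 7 genes (1.45) lie below them (2.60), with no test of the difference.

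The gene whose level over the 12 mRNA libraries was most like that of OAS2 was MX1 (Pearson r = 0.975), followed by DDX58 (0.949) and the collagen gene COL6A3 (0.907), among 12283 genes (12284 for MX2) whose mean FPKM was 1 or more. OAS3 was most like ZC3HAV1 (0.961), ABHD3 (0.897) and IFIT2 (0.891), and OASL most like DDX58 (0.935), IFIT2 (0.920) and ZC3HAV1 (0.885). ADAR was nearest to IFIT1 (0.952), TOR1AIP1 (0.922) and RSAD2 (0.915), and MX2 to MX1 (0.914), COL6A3 (0.905) and UBE2L6 (0.903). OAS1 and EIF2AK2 stood apart, since none of their nearest genes was on the interferon lists: B4GALT5 (0.946), JKAMP (0.921) and S100A3 (0.918) for OAS1, and MOB1A (0.920), ETV3 (0.894) and FAM133B (0.890) for EIF2AK2. Among the 7 genes, r ran from 0.478 (ADAR and MX2) to 0.886 (OAS2 and MX2). These values describe 12 libraries that come in pairs from 6 lines, so differences between lines and those between treatments both enter.

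Omni-ATAC-seq gave 45354 to 97584 broad peaks per library, with more after DAC in each of the 4 lines. A peak lay over the promoter window of OAS3, OASL, EIF2AK2 and ADAR in all 8 libraries, also in H1299 Mock, where OASL mRNA was at 0.209 FPKM. For OAS1 it was present in both A549 libraries and in both libraries labelled CL1-5, and it was not listed in H1299 or in those labelled PC9. For OAS2 it was present in all libraries but those of H1299, where after DAC a peak began 115 bases after the start. For MX2 no Mock library had a peak in this window, and both the DAC library labelled CL1-5 (chr21:42733898-42734506) and that labelled PC9 (chr21:42733582-42734485) had one. In the Mock library labelled CL1-5 an MX2 peak began 115 bases after the start as well, so that here the DAC peak differs by reaching over the start.

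Thus a peak over the MX2 promoter window was gained in the libraries labelled CL1-5, where 3.52% of 18277 promoters were gained and 3.01% lost, and in those labelled PC9, where 4.27% were gained and 1.84% lost. Of the promoters without a peak in Mock, as MX2 was, 11.6% gained one in the libraries labelled CL1-5 and 13.7% in those labelled PC9. In A549 (4.2% gained, 1.94% lost) and H1299 (3.35% gained, 1.54% lost) none of the 7 promoters was gained or lost, and none was lost in any line. The ISRE-type matches of MX2 lay under the DAC peak labelled PC9, which began at -372 bases from the start, and outside that labelled CL1-5, which began at -56. The matches of OAS1 lay under the peak in each of the 4 libraries with a peak, and those of EIF2AK2 and ADAR in all 8. A second region of MX2, centred at -1.25 kb from the start (chr21:42732249-42733152), was present in the DAC libraries of A549 and of those labelled CL1-5 and PC9 and in 0 Mock libraries. Each DAC list was longer than its Mock list. How often regions over all genes were present after DAC alone was not counted, here or for the regions beyond the promoters.

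**Figure D4:**
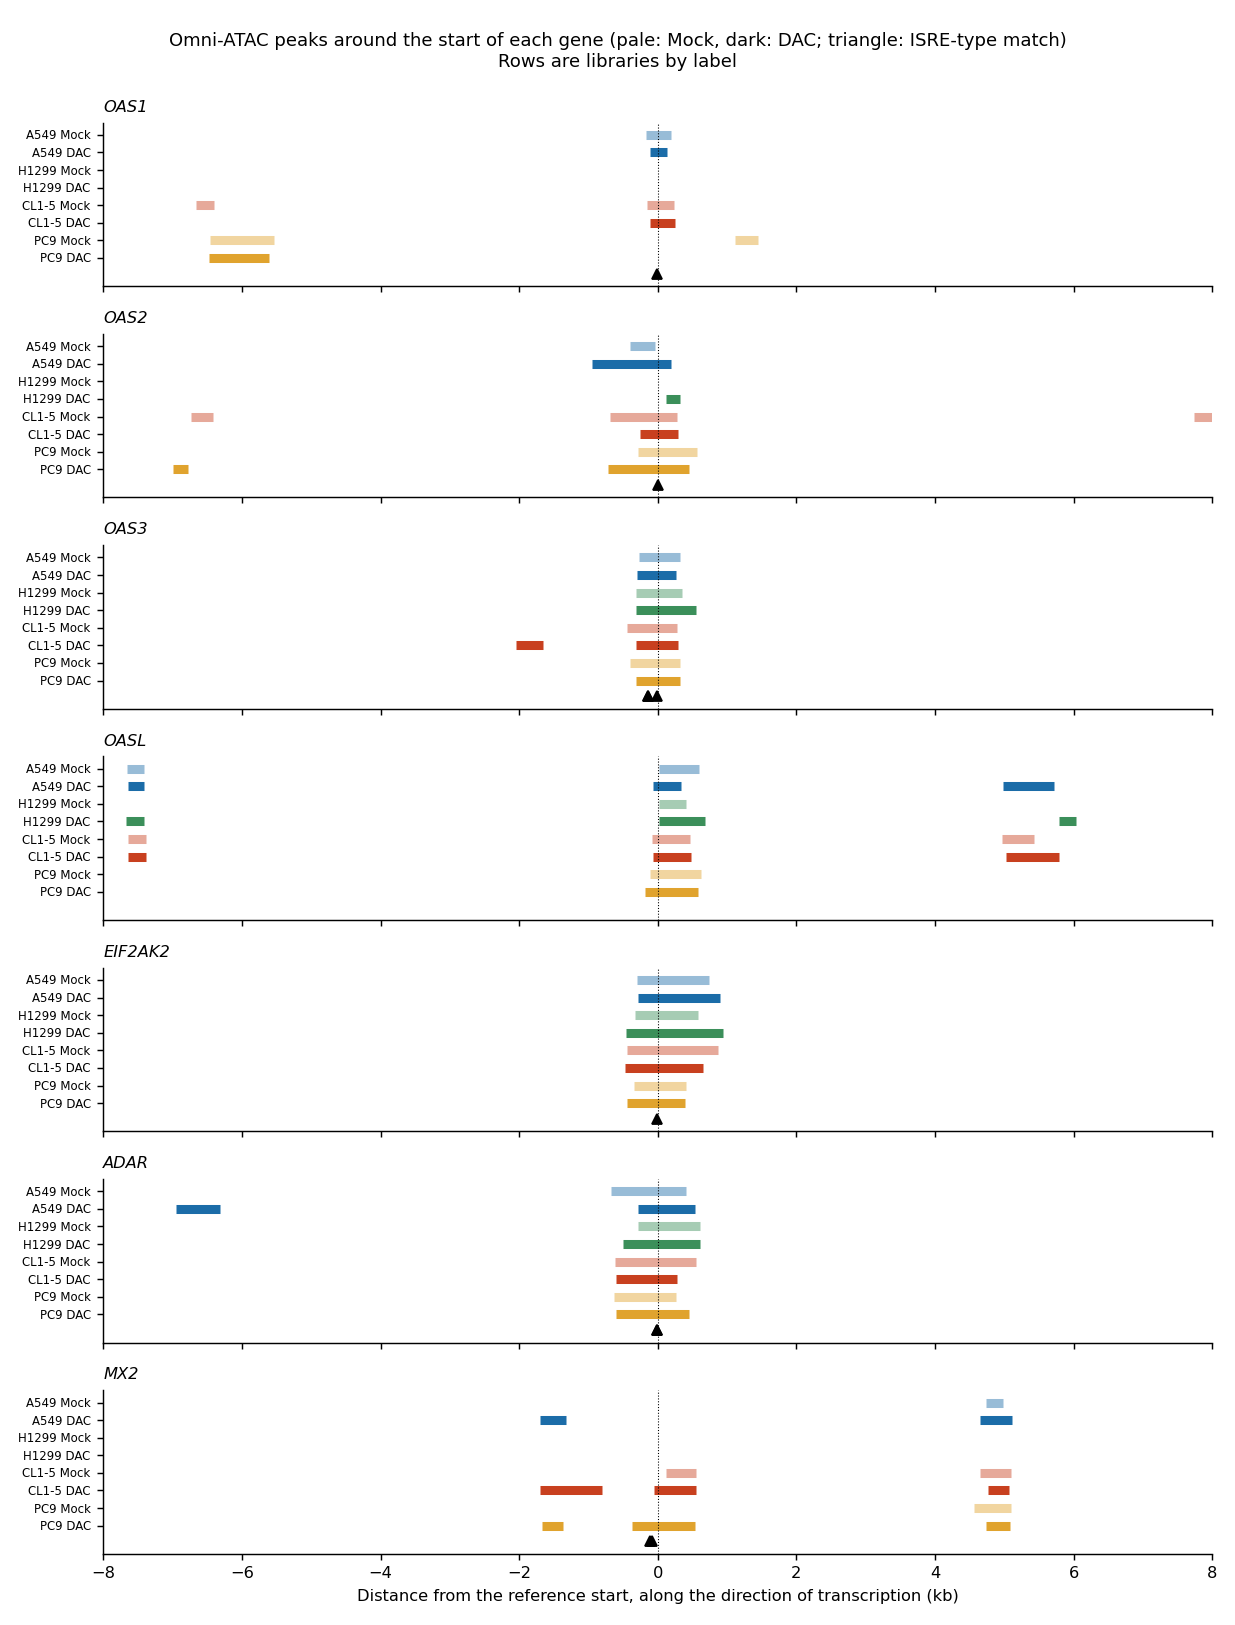
Omni-ATAC peaks within 8 kb of the reference start of each gene, as bars along the distance from the start in kb, in 8 libraries by label (pale for Mock, dark for DAC), with triangles at ISRE-type matches. OAS3, OASL, EIF2AK2 and ADAR carry a bar at or beside the start in all 8 rows, and MX2 gains bars before and over the start in DAC rows.

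Beyond the promoters, a region at -7.52 kb from the start of OASL (chr12:121484427-121484715) was present in both A549 libraries, both labelled CL1-5 and, in H1299, after DAC alone. A region 5.50 kb inside OASL (chr12:121471017-121472077) was present in Mock in the library labelled CL1-5 and after DAC there and in A549 and H1299. In OAS2, a region 14.5 kb after the start (chr12:113430546-113431073) was present after DAC alone in A549 and H1299, in both libraries labelled PC9, and in Mock alone of those labelled CL1-5. ADAR had a second peak in all 8 libraries at -19.4 kb from the reference start, at the upstream end of the gene. The reference start of ADAR, with the ISRE-type match, is that of the transcript for the long interferon-inducible protein p150.

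Fold enrichment is comparable only within a list, so the strongest peak listed for a gene at most 3000 bp from the start named in the list, which can be that of another transcript, gave each of 17319 genes a rank in its library, and those without a peak were tied at the bottom. The percentile of OAS2 was higher after DAC in 4 of 4 lines, from 25.3 to 28.6 in A549, from 12.7 (no peak) to 30.0 in H1299, from 34.5 to 77.7 in the libraries labelled CL1-5 and from 41.7 to 48.0 in those labelled PC9. The mean change was 17.5 percentiles ± 18.1 (SD, n = 4 lines), with an exact two-sided sign-flip permutation p of 0.125, the smallest that 4 lines allow. OASL was also higher in 4 of 4, by 0.0462, 4.64, 29.0 and 7.37 percentiles in the same order, with a mean of 10.3 ± 12.8 (SD, n = 4; exact permutation p = 0.125).

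EIF2AK2 was lower in 4 of 4 lines, from 76.0 to 60.0, from 68.6 to 54.5, from 65.7 to 45.6 and from 66.1 to 60.2, a mean of -14.1 ± 6.0 (SD, n = 4; exact permutation p = 0.125). Its mRNA changed by a log2 of 0.99 in A549, 1.23 in CL1-5, -0.69 in PC9 and -0.07 in H1299. OAS3 went from 55.7 to 64.1 in A549, from 41.9 to 43.5 in H1299, from 39.3 to 67.3 in the libraries labelled CL1-5 and from 52.5 to 50.6 in those labelled PC9, with a mean of 9.03 ± 13.4 (SD, n = 4; exact permutation p = 0.375). ADAR changed by 12.2 ± 11.7 percentiles (SD, n = 4; exact permutation p = 0.25), but by -0.10 when peaks near the reference start alone were ranked. MX2 went from 26.6 to 52.1 in A549, from 50.3 to 62.1 in the libraries labelled PC9 and from 57.9 to 54.7 in those labelled CL1-5. It had no peak in H1299. These MX2 ranks belong to peaks away from the reference start and are not set beside the peak gained over it. In the libraries labelled CL1-5 the peak at the start had a fold enrichment of 2.66 in Mock and 3.56 after DAC. OAS2, at 3.71 in that Mock library, ranked at 34.5. When peaks near the reference start alone were ranked, MX2 changed by 11.6 percentiles. MX2 changed by 8.03 ± 13.5 (SD, n = 4; exact permutation p = 0.5) and OAS1 by -10.8 ± 20 (SD, n = 4; exact permutation p = 0.25), the latter through the libraries labelled PC9 alone. None of these tests could fall under 0.05. By line, between 41.3% (H1299) and 44.5% (libraries labelled PC9) of all ranked genes were higher after DAC, so a fall was more common than a rise. The share of all genes that moved the same way in 4 of 4 lines was not counted. The 4 of 4 results of OAS2, OASL and EIF2AK2 therefore stand without a background. With the rank taken from the summed width of the promoter peaks, the direction turned for OASL (-3.03), EIF2AK2 (2.2) and ADAR (-5.33).

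The median of the 7 changes was 9.03 percentiles, beside -0.07 over all ranked genes, and it was 4.02 without the libraries labelled CL1-5 and 1.16 when ranked by the summed width of the promoter peaks. By line it was 3.29 in A549, -1.91 in H1299, 25.3 in the libraries labelled CL1-5 and 6.34 in those labelled PC9, while the median of all genes was -1.73, -1.76, -0.75 and -1.33. The value of H1299 is that of OAS1 and MX2, which had no listed promoter peak in either library, and so reflects the tied bottom rank of lists of different length and no change of a peak. The libraries labelled CL1-5 thus held the largest gains, for OAS2 (43.2), OASL (29.0), OAS3 (28.1) and ADAR (25.3). That of ADAR belongs to its peak at -19.4 kb from the reference start. The ADAR peak over the reference start ranked above 21.1% of promoters with a peak in Mock and above 26.8% after DAC. Taken by label these gains stand beside the mRNA changes of CL1-5, which were 3.82, 2.80, 2.87 and 0.83 on the log2 scale. Taken by the names inside the lists they stand beside those of PC9, which were 1.38, 0.67, -0.05 and -0.11, and the libraries labelled PC9, with changes of 6.34, 7.37, -1.97 and 9.05 percentiles, then stand beside CL1-5. The check with line-specific genes went with the names inside the lists in Mock, and it was not run on the DAC lists. Which pairing holds was thus not settled for both treatments, so no relation between accessibility and mRNA is drawn in these 2 lines. In A549, where the labels and names agree, OASL mRNA was 42.2-fold higher after DAC and its promoter percentile differed by 0.0462. Its Mock peak began 12 bases after the start, and its DAC peak began 75 bases before it. OAS2, OAS3, ADAR and MX2 changed there by 3.29, 8.42, 16.7 and 25.5 percentiles, the last 2 through peaks away from the reference start. OAS1 and EIF2AK2 changed by -1.66 and -16.1, while mRNA of all 7 genes was higher. A relation of accessibility to mRNA was not tested.

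**Figure D5:**
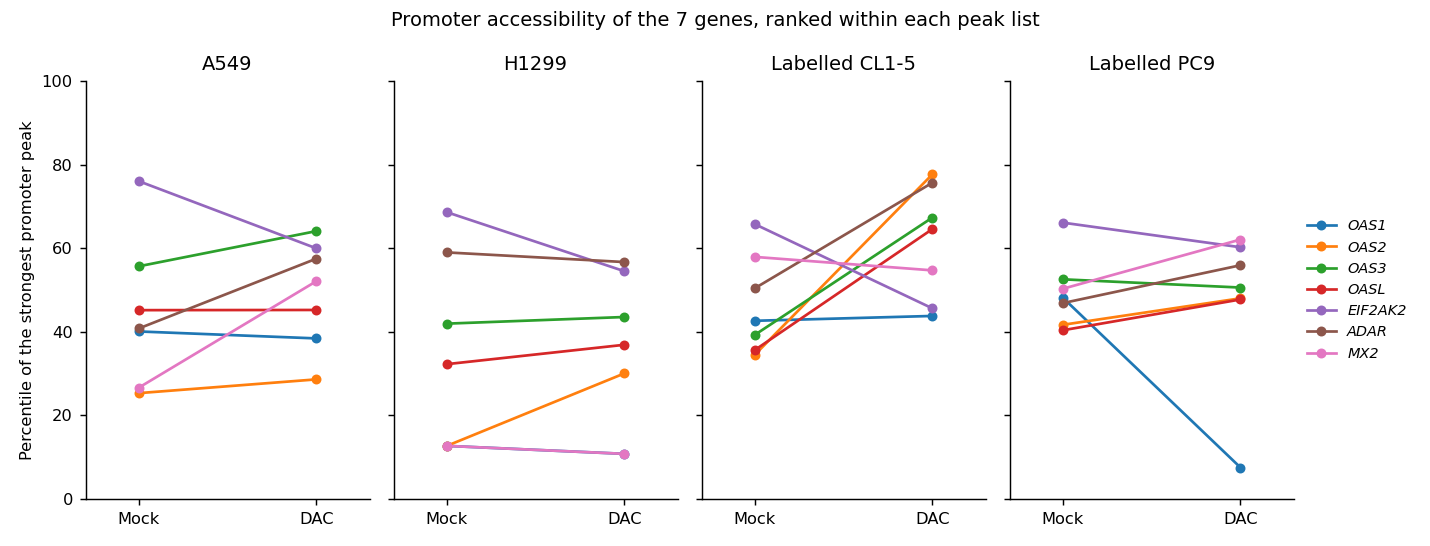
Percentile of the strongest promoter peak of each of the 7 genes among 17319 ranked genes, in the Mock and DAC list of 4 lines by label, with 1 library per point. EIF2AK2 falls in all 4 panels, and OAS2 rises most in the libraries labelled CL1-5, from 34.5 to 77.7.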

How the data were processed

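mRNA-seq (12 libraries, 6 lines) and Omni-ATAC-seq (8 libraries, 4 lines) were grouped by the line and treatment of the sample labels. The authors aligned mRNA reads to hg19 with RSEM and bowtie2 (the submitters' processing notes name TopHat2 2.1.1), counted them per GENCODE gene and deposited FPKM made with DESeq2 1.24.0. The same table holds the mean normalized signal per gene, deposited by the authors, and their own fold changes and p-values, which were not used. How reads shared by paralogs such as OAS1 and OAS2, or MX1 and MX2, were counted is not given in the sources used here. The authors aligned Omni-ATAC reads with BWA 0.7.17-r1188, called broad peaks per library with MACS2 2.2.5 and annotated them with ChIPseeker 1.20.0. In the deposited peak lists each peak has a fold enrichment (a ratio to the local background) and its p and q as −log10. Depth per Omni-ATAC library is unknown. The number of value columns without a sample was 0.

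From FPKM and the mean signal, reads were recovered as whole numbers (100% of values within 0.01 of a whole number). Genes whose mean FPKM over 10 libraries reached 0.1 (22603) entered a limma fit of log2(FPKM + 0.1) with cell line as blocking term and intensity trend (limma 3.58.1, R 4.3.3), and p-values were adjusted by Benjamini-Hochberg with a threshold of 0.05. Each Mock library is paired with the DAC library of its line: deviations from the mean of a treatment had correlations of 0.731 to 0.900 in the same line and of at most 0.115 in other lines. Tested on simulated data for this comparison (22603 genes), the fit called 23 of 100 genes changed 2-fold and 70 of 100 changed 4-fold, 0 in the wrong direction, with 3 unchanged genes called. Sign-flip tests, ranks and motif searches were run in Python 3.11.15 with numpy 2.4.6, pandas 2.3.3 and scipy 1.17.1, on GENCODE starts of GRCh37, where 0 peaks ran past a chromosome end. Sequences are from GRCh37. Figures were drawn with matplotlib 3.10.9.

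The 7 genes, the gene lists and the tests were chosen with earlier results of these data known. The text names all 7 genes, up to 4 genes with the largest and 2 with the smallest log2 change of each list, ABCE1, EIF2S1, PRKRA, STAT2, IRF9 and MX1, and for each of the 7 the 3 genes with the highest Pearson r. IFNB1, CD14 and PTPRC were named after their values were seen. Some genes of these lists are not reported here. The alternatives were H1792 added, no block, pseudocounts of 1 and 0.01, other filters, quantile normalization, TPM rescaling, a fit with no trend, voom on recovered reads, a 1.5-fold limit, other peak windows, thresholds and ranks, and each line left out in turn.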

Additional observations from a re-analysis of the deposited data

Results flagged for a closer look

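Of 28 groups of values of the 7 genes, 1 held a value that stood apart from the rest by Dixon's test at the 95% level, and chance gives about 1 in 20. OAS1 changed by -40.6 percentiles in promoter rank in the libraries labelled PC9, while its nearest value in the other lines was -1.91, that of H1299, where OAS1 had no listed promoter peak in either library and the value is only the shift of the tied bottom rank. Its Mock library held a peak 1.28 kb after the start, at percentile 48.1 of all ranked genes, that was not listed after DAC (percentile 7.51), and neither library had a peak over the OAS1 start. OAS1 mRNA was at 1.04 FPKM in Mock and 0.541 after DAC in PC9, and at 2.63 and 32.7 in CL1-5. The cause was not tested.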

How the results depend on the processing

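The log2 changes of the 7 genes kept their direction under all 103 alternatives run for them and stayed on their side of the threshold in all but 2, those of OAS2 and MX2 with voom on recovered reads, which called 2 of the 7 higher (0 otherwise). MX2 could not be fitted without CL1-5 or with a mean FPKM of at least 1, since it did not pass the filter there. Of the 63 alternatives for promoter percentiles, 58 moved by less than the spread between lines. The number of genes called higher over all genes, 27, became 53 with H1792, 10 with no replicate block (cell line left out of the model), 0 with a pseudocount of 1, 2 with no filter, 17 after quantile normalization, 6 with no trend and 178 with voom, which also called 1 lower. With 1 line left out it lay between 0 (without A549, and without CL1-5) and 22, it was 5 without CL1-0 and 12 without PC9, and between 0 and 1 genes were lower, the 1 without H1299. The lowest adjusted p among the 7 from limma ranged from 0.0103 with voom to 0.999942 without the block. Counts of the 7 genes at least 2-fold higher changed in PC9 and H1792 to 0 and 0, in A549 to 3 and in H1299 to 2 with a pseudocount of 1, in CL1-0 to 2 and in A549 to 5 with a pseudocount of 0.01, and in A549 to 7 and H1792 to 1 with rescaling to a common sum, which moved the median of all genes from 0.07 to 0.17. At 1.5-fold, 7 were higher in A549, 7 in CL1-5 and 3 in PC9, and 2 were lower in PC9 and 2 in H1792. The shares of all genes by line were counted at the 2-fold limit of the main setting alone. The counts of the 7 genes under other settings therefore stand without a background and cannot be compared with all genes. The median change of the 7 in promoter percentile lay between 4.02 and 11.5 with 1 line left out and was 1.16 when ranked by summed peak width. Depth limits OAS2 and MX2 in CL1-0, PC9 and A549, and 1 library per line and treatment limits all values by line. Causes were not tested.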
